A study of Mus musculus with 12 samples.

Results

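The hypoxia and glycolysis genes examined here were 10 genes taken by name: Hif1a, Epas1, Hk1, Hk2, Pfkfb3, Ldha, Pgk1, Egln3, Bnip3, and Adm. They are 10 of the 54119 genes for which counts could be summed, and all 10 were among the 19150 genes with enough counts to be tested. At 4 h after LPS, 6 of them (Hif1a, Hk2, Pfkfb3, Ldha, Pgk1, and Adm) were higher than in PBS and none was lower. Of all genes tested, 19.0% were higher and 13.8% lower. The 10 genes were chosen with earlier results of these data known, so this share is no independent result. Against a limit of 1.5-fold, Pfkfb3 alone was already called higher at 15 min, and it had risen 92.9-fold (log2 6.54) by 4 h. Its 15 min call held in 8 of 10 alternative settings. Epas1 was not called. These values use TMM scaling of the libraries, and with library size alone the 4 h log2 value of Pfkfb3 was 5.83 and Epas1 was lower (−0.87).

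Cerebral vessels, the blood vessels separated from mouse forebrain, were profiled by RNA sequencing in 12 libraries to follow the response of the brain vasculature to acute systemic inflammation. Wild-type C57BL6 mice, 2 to 3 months old, received PBS or 10 mg/kg lipopolysaccharide (LPS, a bacterial cell wall component) by intraperitoneal injection. The 4 groups had 3 libraries each: PBS, and LPS taken after 15 min, after 30 min, or after 4 h. Each library pooled the vessels of 1 male and 1 female mouse, so a library is a pair of animals and not a single one. The p-values below measure changes against the spread between such pools. A shift shared by all 3 libraries of a group, as in several cell type markers below, is not part of that spread. The libraries held 18.3 to 25.9 M fragments.

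Cells sense oxygen through prolyl hydroxylases of the EGLN family, which mark the alpha subunits of hypoxia-inducible factors (HIF) for breakdown by the VHL ubiquitin ligase while oxygen is present. HIF1A and EPAS1 (HIF2A) pair with ARNT and bind a short core motif in the control regions of genes for glycolysis, vessel tone, and cell survival. Glycolysis turns glucose into pyruvate and lactate, and endothelial cells are known to draw much of their energy from it.

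Levels are given as CPM, a gene's count relative to the library size, which was scaled by the TMM method. TMM sets aside genes with extreme changes when it scales libraries. Wherever genes are set beside each other the unit is TPM, which also accounts for transcript length and is not scaled by TMM. A gene was called higher or lower where edgeR's quasi-likelihood test rejected a change of at most 1.5-fold (0.585 on the log2 scale). Its p was adjusted by the Benjamini-Hochberg method over the 19150 genes tested, and the threshold was 0.05. Fold changes are log2 differences with their standard error (SE), and group values are the mean ± SD of 3 libraries.

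Markers of endothelial cells and pericytes were present in every library: the 6 pericyte markers summed to between 3296 and 3784 CPM. The 8 endothelial markers summed to 7363 to 7637 CPM in PBS, 5862 to 5993 CPM at 15 min, 5550.5 to 5607 CPM at 30 min, and 5797 to 5869 CPM at 4 h, so each LPS group lay below PBS. Of these 8, 2 were lower at 15 min and 2 at 30 min, and at 4 h 4 were lower and 2 higher. From PBS to 4 h Cldn5 went from 2362 to 475 CPM, a larger fall than that of the sum. Egfl7 (508 to 66.1 CPM), Kdr (352 to 77.4 CPM), and Pecam1 (821 to 396 CPM) also had lower means at 4 h. So did Tie1 (619 to 409 CPM) and Flt1 (1885 to 1789 CPM). Cdh5 rose from 486 to 1889 CPM and Esam from 438 to 728 CPM. Smooth muscle markers summed to 2470 to 2514 CPM in PBS and 1588 to 1613 CPM at 15 min (3 of 5 lower). Other cell types varied with the groups as well. Neuron markers summed to 339 to 351 CPM in PBS and 507 to 520 CPM at 15 min (2 of 6 higher), where astrocyte markers summed to 626 to 667 CPM (1 of 6 lower). From PBS to 4 h, microglia markers went from 146 to 150.1 CPM to 91.5 to 97.5 CPM (3 of 6 lower). Perivascular fibroblast markers went from 434 to 458 CPM to 299 to 311 CPM (2 of 5 lower), and perivascular macrophage markers from 97.1 to 106 CPM to 154 to 158 CPM (2 of 4 higher). Neutrophil markers (8 genes, 5 of them tested) summed to 4.61 to 6.37 CPM in PBS and 188 to 199 CPM at LPS 4 h, where all 5 tested were higher, while Mpo, Elane, and Ly6g stayed below 1 CPM on average. Monocyte markers summed to between 39.0 and 48.1 CPM in PBS and between 142 and 148 CPM at 4 h (4 of 5 higher). For erythroid markers the PBS range was 2317 to 2492 CPM and the 15 min range 3477 to 3618 CPM (2 of 5 higher). Their range was 4437 to 4663 CPM at 30 min (4 of 5 higher) and 6941 to 7306 CPM at 4 h (5 of 5 higher). Choroid plexus markers ranged from 10327 to 10757 CPM in PBS and from 17317 to 18210 CPM at 4 h (2 of 4 higher), and astrocyte markers from 819 to 842 CPM and from 1469.6 to 1522 CPM (2 of 6 higher). At 15 min choroid plexus markers summed to 9209 to 9702 CPM and at 30 min to 13598 to 13938 CPM, with 0 of 4 called. Skeletal muscle markers summed to 9.43 to 14.2 CPM in PBS and to 128 to 139 CPM at 30 min (5 of 5 higher). Although every library was labelled as a pool of both sexes, Xist, the RNA of the inactive X chromosome, ranged from 254 to 371 CPM in PBS, 31.5 to 108 CPM at 15 min, 11.6 to 20.9 CPM at 30 min, and 125 to 184 CPM at 4 h. The summed level of 4 Y-linked genes ranged from 113 to 151 CPM in PBS, 225 to 227 CPM at 30 min, and 275 to 279 CPM at 4 h. The part of these shifts in the results below was not tested, and in bulk vessels fewer cells of a type and less RNA per cell cannot be told apart.

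Promoter windows of the members are shown because the HIF core motif is the sequence through which HIF proteins act. RefSeq windows on GRCm38.p6, from 250 bases before to 50 bases after a transcription start, were available for 9 members (12 windows, since Hk1, Pfkfb3, and Ldha have 2 each). The core letters ACGTG and GCGTG were searched on both strands, so that CACGT and CACGC on the printed strand also count, and the E-box CACGTG, a motif bound by other factors too, counts once on each strand. Of the 12 windows 11 held at least 1 match (91.7%), beside 14380 of all 32851 windows of the same length (43.8%). The members were taken by name as hypoxia and glycolysis genes, so this difference is no independent result. It was not tested, and the windows were not matched for base content. The 6 members that were higher at 4 h are printed 5′ to 3′ with each match in capitals.
Hif1a, chr12:73907617-73907916, plus strand: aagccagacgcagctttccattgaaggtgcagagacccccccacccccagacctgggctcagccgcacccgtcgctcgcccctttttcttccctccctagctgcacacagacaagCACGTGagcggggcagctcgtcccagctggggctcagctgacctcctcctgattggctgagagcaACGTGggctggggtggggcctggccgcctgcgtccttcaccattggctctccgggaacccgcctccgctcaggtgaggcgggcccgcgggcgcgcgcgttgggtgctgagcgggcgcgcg
Pfkfb3, downstream start, chr2:11502041-11502340, minus strand: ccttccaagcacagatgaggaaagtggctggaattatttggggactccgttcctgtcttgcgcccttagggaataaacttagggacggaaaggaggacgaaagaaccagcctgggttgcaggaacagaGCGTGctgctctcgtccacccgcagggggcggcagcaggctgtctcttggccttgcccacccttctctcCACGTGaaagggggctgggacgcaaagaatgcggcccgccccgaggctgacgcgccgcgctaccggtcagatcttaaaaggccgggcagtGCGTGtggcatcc
Hk2, chr6:82774405-82774704, minus strand: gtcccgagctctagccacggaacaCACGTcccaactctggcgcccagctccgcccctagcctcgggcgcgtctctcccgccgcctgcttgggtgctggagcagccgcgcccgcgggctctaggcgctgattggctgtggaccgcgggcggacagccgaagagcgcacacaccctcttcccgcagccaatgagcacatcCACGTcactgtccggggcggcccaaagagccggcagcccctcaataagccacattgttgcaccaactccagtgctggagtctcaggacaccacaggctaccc
Ldha, upstream start, chr7:46845554-46845853, plus strand: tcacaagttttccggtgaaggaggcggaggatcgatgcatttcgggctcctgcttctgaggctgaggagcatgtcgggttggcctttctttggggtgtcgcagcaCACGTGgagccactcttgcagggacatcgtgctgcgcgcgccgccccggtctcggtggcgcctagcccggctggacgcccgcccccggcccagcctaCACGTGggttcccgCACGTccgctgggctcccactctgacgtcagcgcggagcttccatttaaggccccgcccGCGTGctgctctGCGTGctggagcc
Pgk1, chrX:106186850-106187149, plus strand: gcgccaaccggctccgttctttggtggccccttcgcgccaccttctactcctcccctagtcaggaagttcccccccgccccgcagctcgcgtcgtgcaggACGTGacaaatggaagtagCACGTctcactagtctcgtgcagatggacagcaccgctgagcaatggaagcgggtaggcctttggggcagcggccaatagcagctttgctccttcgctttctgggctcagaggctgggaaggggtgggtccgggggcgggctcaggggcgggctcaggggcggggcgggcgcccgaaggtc
Adm, chr7:110627407-110627706, plus strand: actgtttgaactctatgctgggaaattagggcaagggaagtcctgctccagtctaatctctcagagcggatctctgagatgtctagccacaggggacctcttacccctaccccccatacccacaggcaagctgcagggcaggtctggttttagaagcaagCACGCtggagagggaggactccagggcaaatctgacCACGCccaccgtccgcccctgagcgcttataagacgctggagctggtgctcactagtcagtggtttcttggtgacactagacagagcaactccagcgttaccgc
The upstream start of Ldha carried the most matches (7, of which 4 lay in E-boxes), Bnip3 and one start of Hk1 carried 5 each, and the downstream start of Pfkfb3 carried 4, of which 2 formed an E-box that begins 53 bases before the start. Hif1a had 3, with 2 in an E-box. Hk2, Pgk1, and Adm had 2 each and Egln3 had 1, and the second start of Hk1 had none. How the number of matches relates to the changes after LPS was not tested. A match describes letters in a window and not a site of binding.

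In PBS, Epas1 was the most abundant member at 671 TPM (range 649 to 688). Ldha (223 TPM), Pgk1 (124 TPM), Hk1 (63.2 TPM), Bnip3 (36.1 TPM), Hif1a (27.0 TPM), Pfkfb3 (10.0 to 12.5 TPM), and Adm (6.33 TPM) followed without overlap between neighbours. Egln3 (2.05 TPM) and Hk2 (1.53 TPM) came last and overlapped. At LPS 4 h the order was Pfkfb3 (546 TPM), Ldha (367 TPM), and Epas1 (316 TPM), then Hif1a (142 TPM) and Pgk1 (140.0 TPM), which overlapped, and Adm (89.6 TPM). Hk1 (48.0 TPM), Bnip3 (29.0 TPM), Hk2 (5.18 TPM), and Egln3 (1.74 TPM) followed. Pfkfb3 therefore moved from the 7th place of the 10 in PBS to the first at 4 h, and the ranges of neighbouring genes around it did not overlap.

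**Figure D1:**
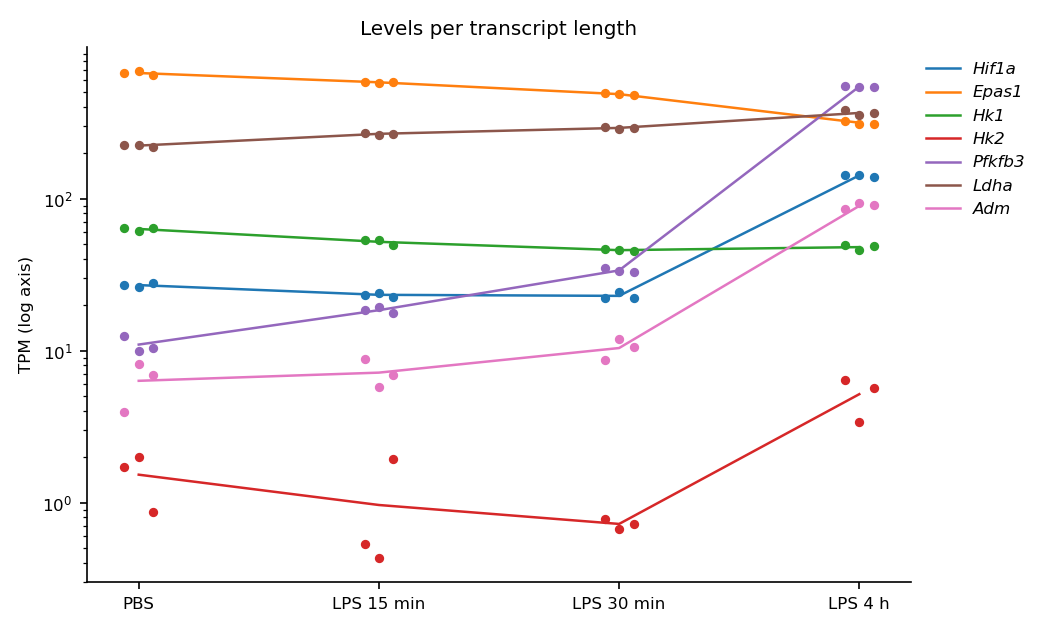
TPM (log axis) of 7 of the members in each library (points) with group means joined by lines, for PBS and the 3 LPS times. Pfkfb3 stood at 10.0 to 12.5 TPM in PBS and reached 546 TPM at 4 h, Hif1a went from 27.0 to 142 TPM, whereas Epas1 went from 671 to 316 TPM.

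Of the 10 members, 1 was called higher and none lower at 15 min, where 4.18% of all genes were called (3.31% higher). At 30 min 3 were called higher and none lower, beside 4.58% of all genes (3.78% higher). At 4 h 6 were called higher and none lower, beside 32.8% of all genes (19.0% higher). Earlier results of these data were known when the members were chosen, so these shares are no independent result. The members had a median log2 fold change of −0.17, 0.38, and 1.35 in order of time, and that of all genes lay between −0.01 and 0.00. The libraries of an LPS group and PBS did not overlap for 8, 9, and 10 of the 10 members, but this was also true of 49.3%, 46.7%, and 70.9% of all genes. Without the 1.5-fold limit 9, 7, and 10 members passed, beside 38.6%, 36.9%, and 68.5% of all genes. With scaling by library size alone, without TMM, the median log2 fold change of all genes was −0.71 at 4 h and −0.18 at 30 min, where TMM gave −0.01 at both, so each 4 h value below is relative to a typical gene. With that scaling 5 members were higher and 1 (Epas1) lower at 4 h, beside 9.96% and 44.7% of all genes.

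**Figure D2:**
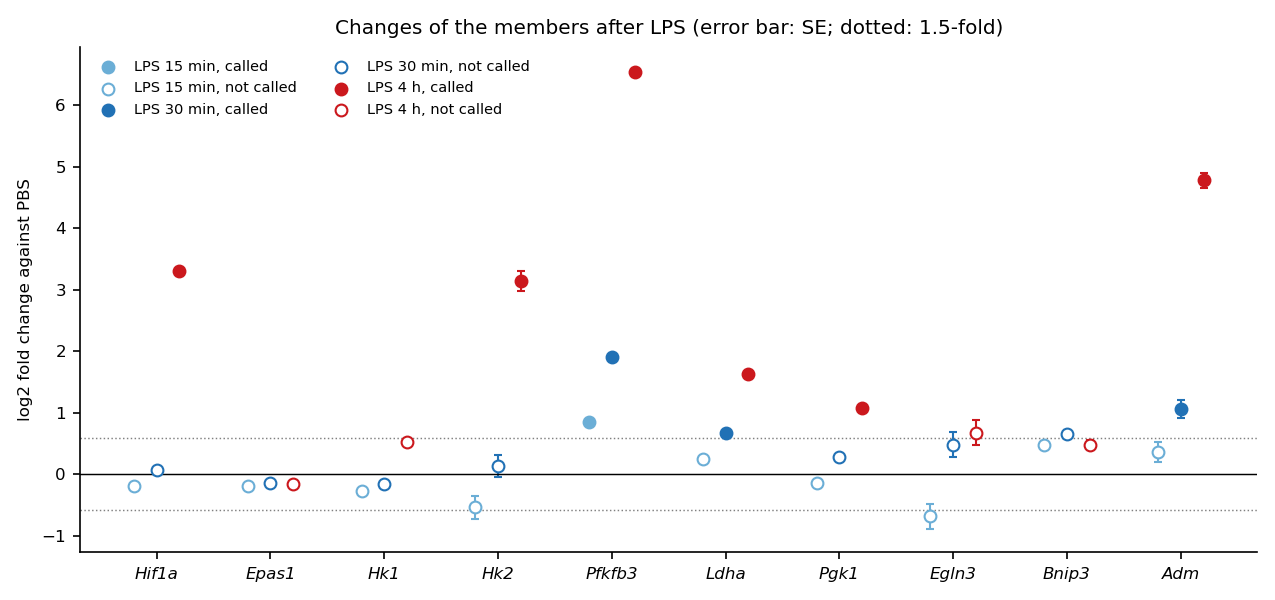
Log2 fold change of each member at the 3 LPS times against PBS, with SE bars (3 libraries a group), filled where the gene was called. Pfkfb3 rises at each time, and the other called members separate from 0 mainly at 4 h.

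The HIF alpha subunits diverged at 4 h. Hif1a, which like Epas1 encodes an alpha subunit that is degraded when oxygen is present, was measured at 75.0, 72.1, and 76.1 CPM in the PBS libraries. It stood at 65.1, 66.0, and 64.5 CPM at 15 min and at 77.0, 79.1, and 78.5 CPM at 30 min. At 4 h it reached 725, 753, and 722 CPM. The 4 h libraries stood far above all others, whereas the means of the early groups stayed within 1.14-fold of PBS. Hif1a rose 9.86-fold at 4 h (log2 3.30, SE 0.0297, edgeR adjusted p = 5.33e-28), and its changes of −0.19 at 15 min and 0.07 at 30 min were not called. The rise came after 30 min: LPS 4 h against LPS 30 min differed by 3.23 on the log2 scale (SE 0.0299, edgeR adjusted p = 1.92e-27).

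Epas1, the HIF subunit that is abundant in endothelial cells, gave 2275, 2339, and 2246 CPM in PBS. At 4 h it gave 2073, 2012, and 2036 CPM, all just below the PBS libraries. Its log2 fold changes against PBS were −0.19 at 15 min, −0.15 at 30 min, and −0.16 at 4 h, none of them called (edgeR adjusted p = 1 each). This near-level value rests on the scaling: with library size alone Epas1 was lower at 4 h by 0.87 on the log2 scale and was called (edgeR adjusted p = 9.65e-14), and its TPM went from 671 ± 19.6 to 316 ± 8.77 (SD, n = 3).
The ratio of Epas1 to Hif1a within a library is free of the scaling between libraries. It was 24.9 ± 1.55 (SD, n = 3) in PBS, 25.0 ± 0.833 at 15 min, 21.3 ± 1.17 at 30 min, and 2.22 ± 0.0472 at 4 h, in TPM. The 4 h ratios, 2.17 to 2.26, lay far below the PBS ratios, 23.3 to 26.4.

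Of the 5 genes for HIF subunits, 1 was called higher at 4 h (Hif1a, 20.0%) and none lower, beside 19.0% and 13.8% of all genes. Arnt, the shared partner subunit, went from 74.7 to 112 CPM (log2 0.58, SE 0.0421, edgeR adjusted p = 0.56). Hif3a, which encodes a further alpha subunit, was called at 30 min, from 3.74 to 7.84 CPM (log2 1.07, SE 0.156, edgeR adjusted p = 0.0143), and not at 4 h (0.39). The Hif3a call was lost in 5 of 10 alternative settings and when PBS replicate 2 or PBS replicate 3 was left out. Most Hif1a RNA was assigned to the transcript Hif1a-201, which carried 81.5% ± 3.83 (SD, n = 3) of its TPM in PBS and 82.3% ± 3.23 at 4 h. Hif1a-202, which starts farther upstream, carried 14.7% ± 0.884 and 13.4% ± 2.94, a difference smaller than the spread between libraries, and its level was 3.59 to 4.26 TPM in PBS and 14.4 to 22.4 TPM at 4 h.

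Egln3, an oxygen-sensing prolyl hydroxylase and a well-known HIF target, was scarce. Its counts were 81, 85, and 92 in PBS (3.03, 2.87, and 3.51 CPM) and 49, 56, and 48 at 15 min (1.66, 2.38, and 1.81 CPM). They were 102, 99, and 100 at 30 min (4.42, 4.26, and 4.47 CPM) and 46, 75, and 93 at 4 h (3.55, 4.99, and 6.35 CPM). The 15 min libraries lay below PBS and the 30 min libraries above it, and the 4 h libraries were spread over a wide range. No change against PBS was called (log2 −0.69, 0.48, and 0.67 in order of time), and the 4 h value was −0.03 with library size alone. Between 15 and 30 min Egln3 rose by 1.17 on the log2 scale (SE 0.209, edgeR adjusted p = 0.0257). It was 1 of 2 members called higher between these times (Pfkfb3 was the other) and none was lower, beside 4.65% of all genes (2.69% higher). The Egln3 call did not hold with DESeq2 (adjusted p = 0.215), library size scaling (edgeR adjusted p = 0.0883), a transcript length offset (edgeR adjusted p = 0.0571), or limma. Leaving out LPS 15 min replicate 1 or 3, or any one of the LPS 30 min replicates, also ended it, with adjusted p from 0.0505 to 0.133.

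Among the 11 genes of oxygen sensing and HIF turnover, none was called at 15 min, 1 was higher at 30 min, and 3 were higher (27.3%) and 1 lower (9.09%) at 4 h, beside 19.0% and 13.8% of all genes (median log2 0.27). Siah2, a ubiquitin ligase that targets prolyl hydroxylases, went from 10.2 CPM in PBS to 20.1 CPM at 30 min and 28.5 CPM at 4 h. It was higher at both times (log2 0.97, SE 0.0933, edgeR adjusted p = 0.0013, and 1.48, SE 0.0945, edgeR adjusted p = 1.85e-09). The 30 min call was lost with library size alone (0.81, edgeR adjusted p = 0.0672) and in both limma settings. Eloc, a subunit of the VHL ligase, and Egln2, a nuclear prolyl hydroxylase, were higher at 4 h by 0.86 (SE 0.0573) and 0.82 (SE 0.0391), with edgeR adjusted p of 4.04e-05 and 1.76e-06. Egln1, the main oxygen sensor among the prolyl hydroxylases, was lower, from 78.8 to 42.0 CPM (log2 −0.90, SE 0.0505, edgeR adjusted p = 1.16e-06). Vhl, the substrate-recognition subunit, had a log2 change of −0.41 and was not called. Library size alone left 1 higher (Siah2, 0.78) and 5 lower (45.5%) at 4 h, where it called 44.7% of all genes lower, with Eloc at 0.15 and Egln2 at 0.12 no longer called.

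The hexokinases, which trap glucose in the cell as glucose 6-phosphate, responded unequally. Hk1, the housekeeping form, gave 156, 149.5, and 158 CPM in PBS and 225, 213, and 229.8 CPM at 4 h. The 4 h libraries lay above PBS without overlap, but the change of 0.52 (SE 0.0349) stayed under the 1.5-fold limit, and with library size alone it was −0.18. Against LPS 30 min (140.3, 137, and 139 CPM) Hk1 was called higher at 4 h by 0.68 (SE 0.0355, edgeR adjusted p = 0.006). Library size scaling reduced this to 0.14. The call was also lost with limma (adjusted p = 0.118 and 0.134), with no filter (edgeR adjusted p = 0.115), and with a transcript length offset (edgeR adjusted p = 0.0578), at log2 values of 0.64 to 0.66.

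Hk2, the inducible hexokinase, had counts of 62, 91, and 79 in PBS (2.32, 3.07, and 3.02 CPM). It had 335, 335, and 383 at 4 h (25.8, 22.3, and 26.2 CPM). All 4 h libraries were higher than any other, and the earlier libraries all lay between 1.49 and 3.29 CPM. Hk2 rose 8.80-fold at 4 h (log2 3.14, SE 0.158, edgeR adjusted p = 2.75e-13), with no call at 15 min (−0.54, SE 0.183) or 30 min (0.13, SE 0.175). Even so Hk1 remained the more abundant per length: the ratio of Hk1 to Hk2 in TPM was 30.7 to 73.9 in PBS, 25.5 to 124 at 15 min, and 7.68 to 13.5 at 4 h. These ratios are uncertain, because in PBS Hk2-202, which is not annotated as protein-coding, carried 0% to 64.0% of the Hk2 TPM on at most 7.47 fragments a library. The protein-coding Hk2-201 alone averaged 0.769 TPM in PBS and 3.74 TPM at 4 h. Hk3, the hexokinase of myeloid cells, was not called (3.10 CPM in PBS and 4.31 CPM at 4 h, log2 0.47, edgeR adjusted p = 0.781). The transcripts Hk1-202 and Hk1-201 shared the Hk1 RNA in similar parts in PBS (62.0% ± 2.46 and 37.5% ± 2.19 of TPM, SD, n = 3) and at 4 h (64.7% ± 5.50 and 34.1% ± 5.45).

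Pfkfb3 showed the largest change of the 10 members at each LPS time against PBS. It encodes the kinase that makes fructose 2,6-bisphosphate, the strongest activator of phosphofructokinase, and is known to set glycolytic flux in endothelial cells. PBS libraries gave 29.3, 27.4, and 26.8 CPM, and the 15 min libraries gave 49.5, 52.4, and 48.6 CPM. At 30 min the level was 104, 106, and 104 CPM, and at 4 h it averaged 2587 CPM. The groups stepped up in order of time, and no library of one group overlapped with another.
The log2 fold change was 0.85 at 15 min (SE 0.0352, edgeR adjusted p = 1.08e-06), 1.91 at 30 min (SE 0.0334, edgeR adjusted p = 3.21e-20), and 6.54 at 4 h (SE 0.0340, edgeR adjusted p = 1.01e-32). Each step was itself called, with 1.06 from 15 to 30 min (SE 0.0312, edgeR adjusted p = 4.3e-12) and 4.63 from 30 min to 4 h (SE 0.0300, edgeR adjusted p = 3.04e-30). With library size alone the 4 h value was 5.83 (edgeR adjusted p = 6.1e-32). The 15 min call was lost only with limma on the authors' normalized gene table, at 0.74 with an adjusted p of 0.396 for a pseudocount of 1 and 0.512 for a pseudocount of 10. With a transcript length offset it lay close to the threshold (0.76, edgeR adjusted p = 0.0471).

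Pfkfb3 has 21 annotated transcripts and more than 1 start. The 12 that begin at the downstream start, whose promoter window is printed above, carried 84.8% ± 6.85 (SD, n = 3) of the gene's TPM in PBS and 82.7% ± 0.811 at 4 h. Their summed level was 8.18 to 10.5 TPM in PBS and 449 to 453 TPM at 4 h. The 2 transcripts of the upstream start carried 5.81% ± 3.39 and 4.94% ± 0.694, with levels of 0.320 to 1.00 TPM and 23.1 to 31.3 TPM. The shares of either start at PBS and 4 h differed by less than the spread between libraries. Within the downstream set, Pfkfb3-206 went from 62.4% ± 6.66 to 57.1% ± 1.84 and Pfkfb3-214 from 16.1% ± 1.42 to 21.9% ± 2.07. The shares of Pfkfb3-214 did not overlap between PBS (14.5% to 17.3%) and 4 h (20.0% to 24.1%), and at 15 min they were lower, 6.82% to 11.8%. Transcripts with retained introns (4 of 21) carried 9.52% ± 4.29 in PBS, 2.33% ± 1.62 at 15 min, 11.1% ± 2.07 at 30 min, and 10.8% ± 0.327 at 4 h. By estimated fragments, which favour long transcripts, the same transcripts carried 0.823%, 0.47%, 1.38%, and 1.39%, and they rested on 3.44 to 10.0 fragments a library in PBS and 2.0 to 12.8 at 15 min, ranges that overlap. The downstream start carried 92.5% of the fragments in PBS and 92.8% at 4 h. These shares are Salmon's assignments of fragments among overlapping transcripts and were not tested.

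Of the 5 genes that make or remove fructose 2,6-bisphosphate, only Pfkfb3 was called at 15 and 30 min, beside 4.18% and 4.58% of all genes. At 4 h Pfkfb3 was higher and Tigar, a phosphatase that breaks the metabolite down, was lower, from 13.6 to 6.66 CPM (log2 −1.03, SE 0.118, edgeR adjusted p = 4.25e-04). Of all genes, 19.0% were higher and 13.8% lower at that time. The Tigar call was lost in both limma settings and held in the other 8. Pfkfb4, a relative often induced with Pfkfb3 in hypoxia, gave 13.6 CPM in PBS and 14.9 CPM at 4 h (log2 0.13, SE 0.0983), and Pfkfb2 gave 27.8 and 19.9 CPM (−0.48, SE 0.0811). Neither was called, although library size alone called Pfkfb2 lower (−1.19, edgeR adjusted p = 6.04e-08).

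**Figure D3:**
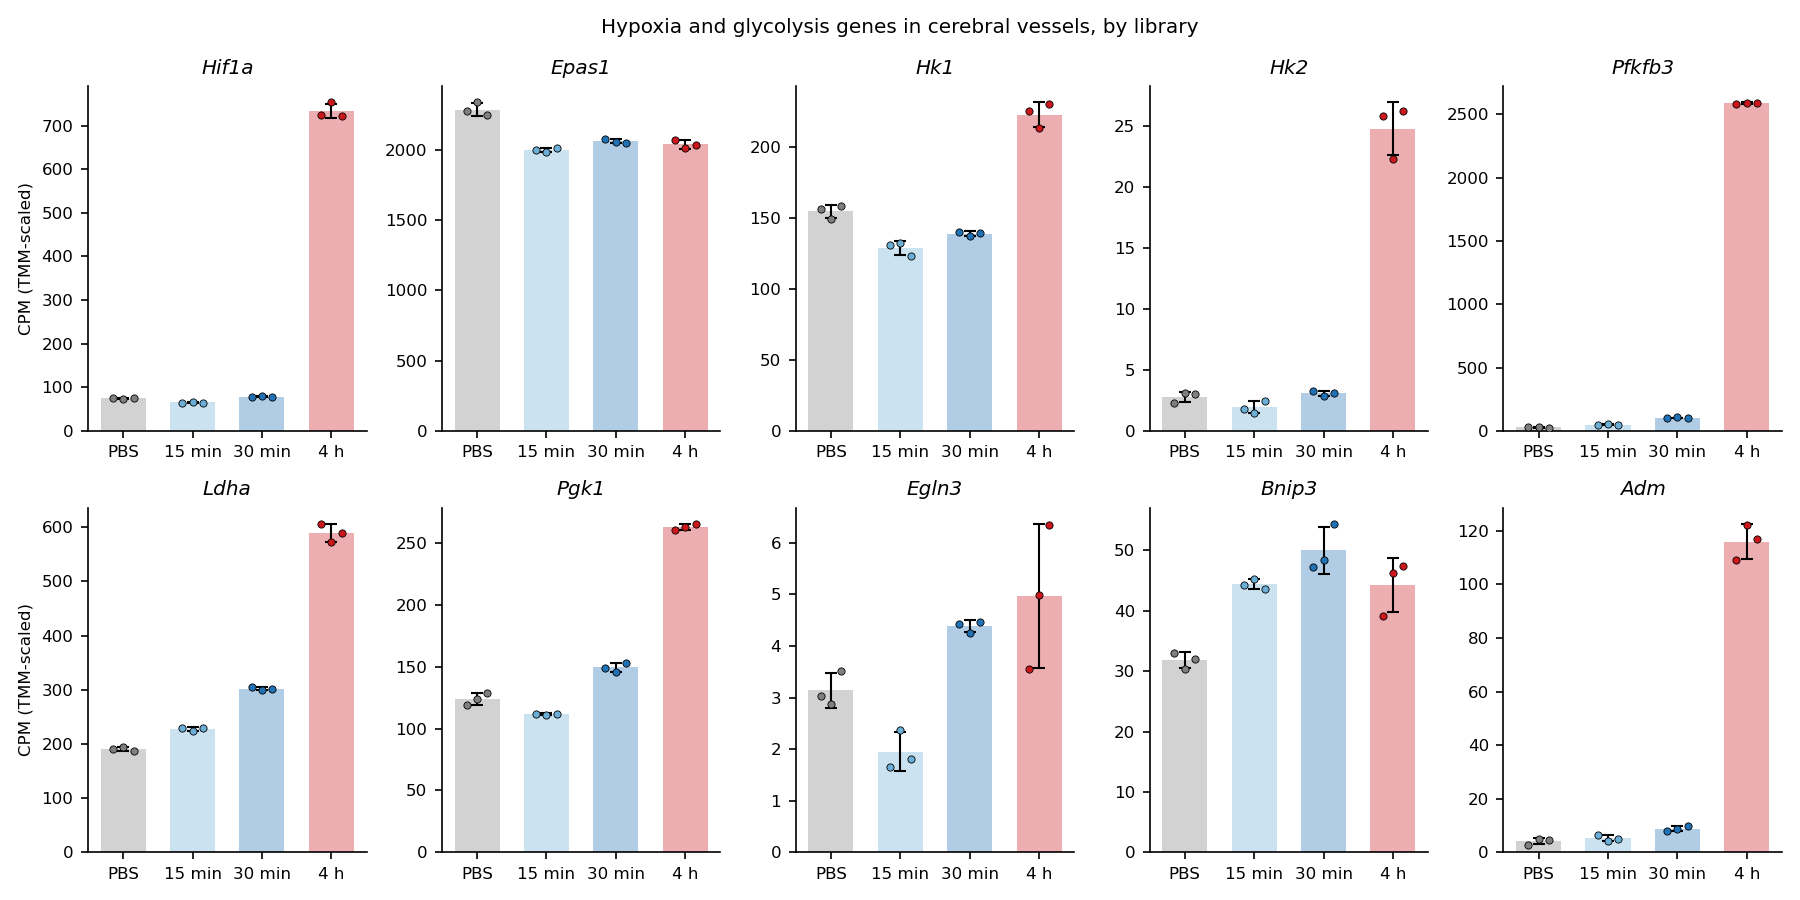
TMM-scaled CPM of the 10 members in each of the 12 libraries (points), with bars for the group mean and error bars for the SD of 3 libraries; each panel has its own linear axis from 0. Pfkfb3, Hif1a, Hk2, and Adm show a step at 4 h, and Epas1 stays between 1989 and 2339 CPM.

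Ldha, the lactate dehydrogenase subunit that favours lactate formation, gave 191, 194, and 188 CPM in PBS. It gave 229.9, 224, and 229 CPM at 15 min and 306, 299, and 302 CPM at 30 min. At 4 h it reached 606, 572, and 589.5 CPM. No group overlapped with another, and each later time stood higher. The rise was called at 30 min (log2 0.66, SE 0.0260, edgeR adjusted p = 0.0205) and at 4 h (1.62, SE 0.0262, edgeR adjusted p = 2.73e-21). The 30 min value lies close to the 1.5-fold limit: it was 0.50 with library size alone, and RLE factors, no filter, DESeq2, limma, and leaving out PBS replicate 1, PBS replicate 3, or LPS 30 min replicate 1 each ended the call. Ldhb, the subunit that favours pyruvate, went from 122 to 141 CPM at 4 h (log2 0.21, not called). The ratio of Ldha to Ldhb in TPM was 1.22 ± 0.0391 (SD, n = 3) in PBS, 1.59 ± 0.0785 at 15 min, 1.66 ± 0.0179 at 30 min, and 3.28 ± 0.0993 at 4 h.

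Pgk1, phosphoglycerate kinase, makes ATP in the lower part of glycolysis. The PBS libraries gave 119, 124, and 129 CPM, the 30 min libraries 149, 146, and 153 CPM, and the 4 h libraries 260.0, 263, and 265 CPM. These groups did not overlap, while the 15 min libraries (112, 111, and 112 CPM) lay just below PBS. Pgk1 was higher at 4 h (log2 1.08, SE 0.0312, edgeR adjusted p = 1.25e-13) and not called at 30 min (0.27). With library size alone the 4 h value was 0.38 and not called, and the libraries stood at 121 to 128 TPM in PBS and 139 to 141 TPM at 4 h. Pgk1 lies on the X chromosome, and Xist, given above, was lower at every LPS time than in PBS, with no overlap. Any link between Xist and Pgk1 was not tested. Processed copies of Ldha, Pgk1, and Gapdh elsewhere in the genome can share fragments with them, so small changes in these genes are less certain.

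Of the 23 listed glycolytic enzymes 22 were tested, and 4 were higher (18.2%) and none lower at 4 h, beside 19.0% higher and 13.8% lower of all genes. The median log2 fold change was 0.14, and that of all genes −0.01. Besides Hk2 and Pgk1 these were Pfkp, the platelet-type phosphofructokinase (146 to 344 CPM, log2 1.23, SE 0.0282, edgeR adjusted p = 9.08e-17), and Gapdh (573 to 907 CPM, 0.66, SE 0.0216, edgeR adjusted p = 7.47e-04). The other phosphofructokinases were not called (Pfkl −0.05 and Pfkm −0.42), nor were Aldoa (0.11), Eno1 (−0.02), and Pkm (0.18). Gapdh was called in 4 of 10 alternative settings, and Pfkp in 9. Under library size scaling Hk2 was the 1 enzyme still called higher (2.43), 8 were called lower (36.4%, beside 44.7% of all genes), and Gapdh was at −0.04. At 30 min none of the 22 was called by edgeR against the 1.5-fold limit, and with no fold limit 7 were higher and 1 lower.

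**Figure D4:**
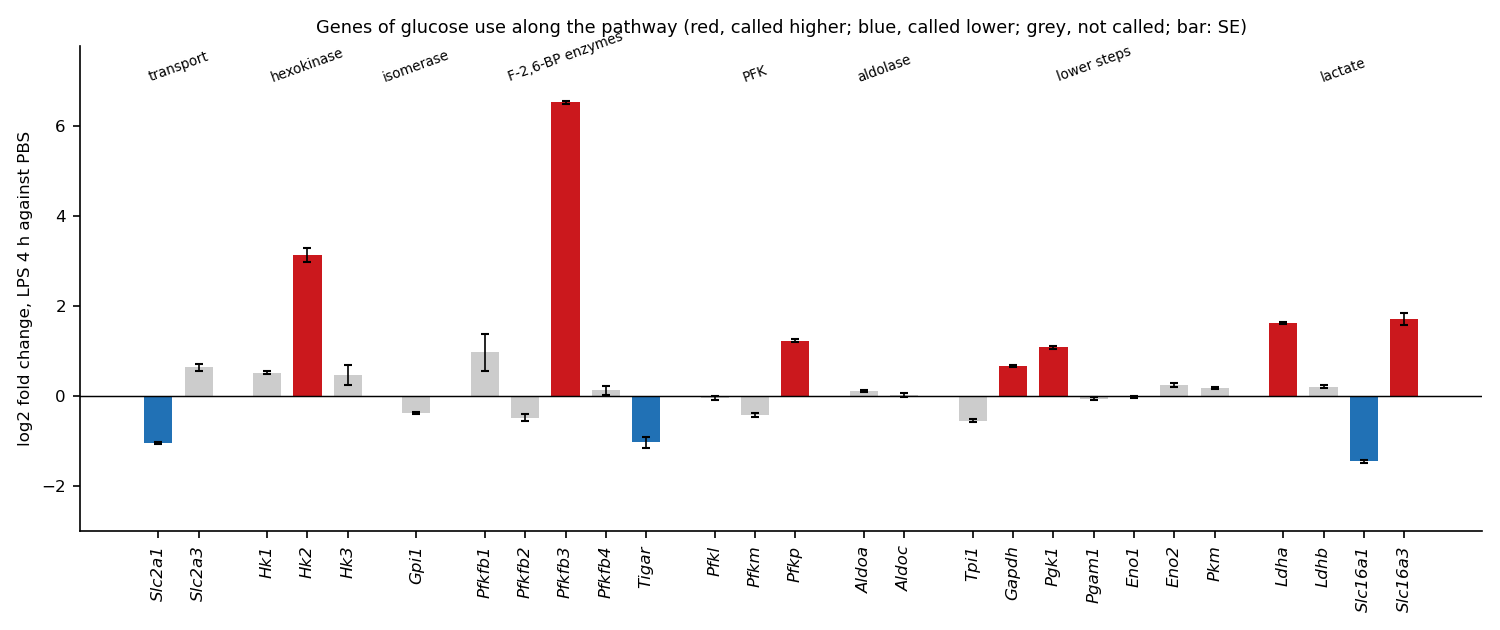
Log2 fold change at LPS 4 h against PBS (TMM scaling, error bars SE, 3 libraries a group) for genes of glucose uptake, glycolysis, fructose 2,6-bisphosphate (F-2,6-BP), and lactate, in pathway order. Red bars were called higher, blue lower, and grey not called: Pfkfb3 at 6.54 stands out, while Eno1 (−0.02) and Pfkl (−0.05) lie at 0.

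Genes of glucose and lactate handling changed in both directions. Slc2a1, the glucose transporter GLUT1 of the blood-brain barrier, averaged 2735 CPM in PBS, 4455 CPM at 15 min, 5514 CPM at 30 min, and 1324 CPM at 4 h. It was higher at 15 min (log2 0.70, SE 0.0173, edgeR adjusted p = 3.2e-06) and 30 min (1.01, SE 0.0174, edgeR adjusted p = 1.93e-16) and lower at 4 h (−1.05, SE 0.0175, edgeR adjusted p = 5.92e-18), and each of these calls held in 10 of 10 alternative settings. Its direction at 4 h was thus opposite to that of Hif1a, Hk2, and Ldha. Slc2a3, a high-affinity glucose transporter, was higher at 15 min (15.8 to 32.5 CPM, log2 1.04, SE 0.0740, edgeR adjusted p = 1.82e-05), a call that was lost in both limma settings.
The lactate transporters parted as well. Slc16a1 (MCT1), the main transporter of brain endothelium, fell from 197 CPM in PBS to 92.2 CPM at 30 min (log2 −1.10, SE 0.0348, edgeR adjusted p = 5.02e-12) and 72.1 CPM at 4 h (−1.45, SE 0.0377, edgeR adjusted p = 1.06e-16). Slc16a3 (MCT4), an exporter of lactate and a HIF target, rose from 5.16 to 17.0 CPM at 4 h (1.72, SE 0.132, edgeR adjusted p = 9.33e-09). Pdk4, a kinase that shuts pyruvate out of the citric acid cycle, rose from 16.4 to 165 CPM (3.33, SE 0.0582, edgeR adjusted p = 2.14e-22), whereas its relative Pdk2 fell from 44.8 to 19.9 CPM (−1.16, SE 0.0736, edgeR adjusted p = 4.54e-08). Pdk1, the member of that family best known as a HIF target, gave −0.31 and was not called. Over the 11 genes, 2 were higher and 0 lower at 15 min, 2 and 1 at 30 min, and 3 and 3 at 4 h, where 4.18%, 4.58%, and 32.8% of all genes were called in either direction.

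Bnip3, a mitochondrial receptor for mitophagy and a HIF target, gave 33.1, 30.4, and 32.1 CPM in PBS. It gave 44.3, 45.3, and 43.6 CPM at 15 min, 47.2, 48.4, and 54.4 CPM at 30 min, and 39.2, 46.2, and 47.5 CPM at 4 h. Every LPS library was above every PBS library, but no change was called against the 1.5-fold limit: the log2 changes were 0.48 (SE 0.0650), 0.65 (SE 0.0652, edgeR adjusted p = 0.661), and 0.48 (SE 0.0693). With no fold limit all 3 passed. The 4 h value was −0.22 with library size alone. In the group of mitophagy receptors, 0 of 3 were called at any time, beside 4.18%, 4.58%, and 32.8% of all genes in order of time. Bnip3l (0.03 at 4 h) and Fundc1 (−0.20) lay near 0.

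Adm, the gene of adrenomedullin, a peptide that widens vessels and tightens the endothelial barrier, had counts of 77, 146, and 125 in PBS (2.88, 4.93, and 4.77 CPM). It gave 6.54, 4.29, and 5.17 CPM at 15 min, 7.89, 8.78, and 9.74 CPM at 30 min, and 109, 122, and 117 CPM at 4 h. The 15 min libraries overlapped with PBS, and the later groups lay above it. Adm rose 27.5-fold at 4 h (log2 4.78, SE 0.120, edgeR adjusted p = 1.3e-19) and was called at 30 min (1.06, SE 0.152, edgeR adjusted p = 0.0136). The 30 min call did not hold with DESeq2 (adjusted p = 0.477), library size (edgeR adjusted p = 0.125), a transcript length offset (0.166), or limma, nor without PBS replicate 1 (0.86, edgeR adjusted p = 0.159) or LPS 30 min replicate 3 (edgeR adjusted p = 0.0749).

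The receptor side of the adrenomedullin system moved the other way in 1 gene. Ramp2, the accessory protein that makes the calcitonin receptor-like receptor respond to adrenomedullin, gave 318 CPM in PBS, 439 CPM at 30 min, and 45.0 CPM at 4 h. It was lower at 4 h (log2 −2.82, SE 0.0329, edgeR adjusted p = 1.63e-25) in 10 of 10 alternative settings. Calcrl, the receptor itself, gave 75.3 and 91.6 CPM (0.28, not called), and Ramp3 had a log2 fold change of 0.59 (SE 0.0866, edgeR adjusted p = 0.465). Of 6 listed genes 5 were tested, and 1 was higher (20.0%) and 1 lower (20.0%) at 4 h, beside 19.0% and 13.8% of all genes.

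Other canonical HIF target genes were mixed. Like the lists above, this one was chosen with earlier results of these data known, so its shares are no independent result. Slc2a1, Slc16a3, Pdk1, Egln1, Bnip3l, and Pfkfb4 are also in lists above and count in both. Of 22 listed and tested, 5 were higher (22.7%) and 0 lower at 15 min, beside 3.31% of all genes higher (median log2 of the list 0.08). At 30 min 7 were higher (31.8%) and 0 lower, beside 3.78% (0.21). At 4 h 6 were higher (27.3%) and 3 lower (13.6%), beside 19.0% and 13.8% (0.09). At 15 min the called genes were Bhlhe40 (1.31), P4ha2 (0.89), Ddit4 (0.87), P4ha1 (0.82), and Slc2a1 (0.70), of which P4ha2 was lost in both limma settings. Bhlhe40, a transcriptional repressor, continued from 58.8 CPM in PBS to 146, 275, and 294 CPM. P4ha1 and P4ha2, collagen prolyl hydroxylases, stood at 104 and 97.3 CPM at 30 min beside 50.3 and 45.1 CPM in PBS. The genes called at 30 min included Bhlhe40 (2.23, SE 0.0318, edgeR adjusted p = 1.65e-22), Car9 (1.42), P4ha2 (1.11), P4ha1 (1.05), and Slc2a1 (1.01).
At 4 h the called increases included Bhlhe40 (2.32), Slc16a3 (1.72), Car9 (1.56), Ddit4 (1.45), and Ndrg1 (1.04). Car9, the hypoxia-induced carbonic anhydrase, was scarce (3.20 to 9.46 CPM) and was called in 7 of 10 alternative settings at 30 min and at 4 h. The Ndrg1 call was lost with library size alone (0.33). The 3 that were lower were Mxi1 (−1.41, SE 0.0572, edgeR adjusted p = 1.11e-12), Slc2a1 (−1.05), and Egln1 (−0.90). Vegfa, the best-known HIF target, gave 69.5 CPM in PBS and 64.9 CPM at 4 h (−0.10, SE 0.0478, not called). With library size alone 5 of the 22 were higher (22.7%) and 10 lower (45.5%) at 4 h, beside 9.96% and 44.7% of all genes, and Vegfa was then called lower (−0.80, edgeR adjusted p = 3.07e-05).

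Between LPS 30 min and LPS 4 h, 7 of the 10 members were called higher and none lower, beside 28.6% of all genes (16.9% higher and 11.8% lower): Pfkfb3 (4.63), Adm (3.72), Hif1a (3.23), Hk2 (3.01), Ldha (0.96), Pgk1 (0.81), and Hk1 (0.68). Library size alone kept Pfkfb3 (4.09), Adm (3.18), Hif1a (2.69), and Hk2 (2.47), and called Bnip3 lower (−0.71, edgeR adjusted p = 0.0254), where it called 10.0% of all genes higher and 36.2% lower.

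**Figure D5:**
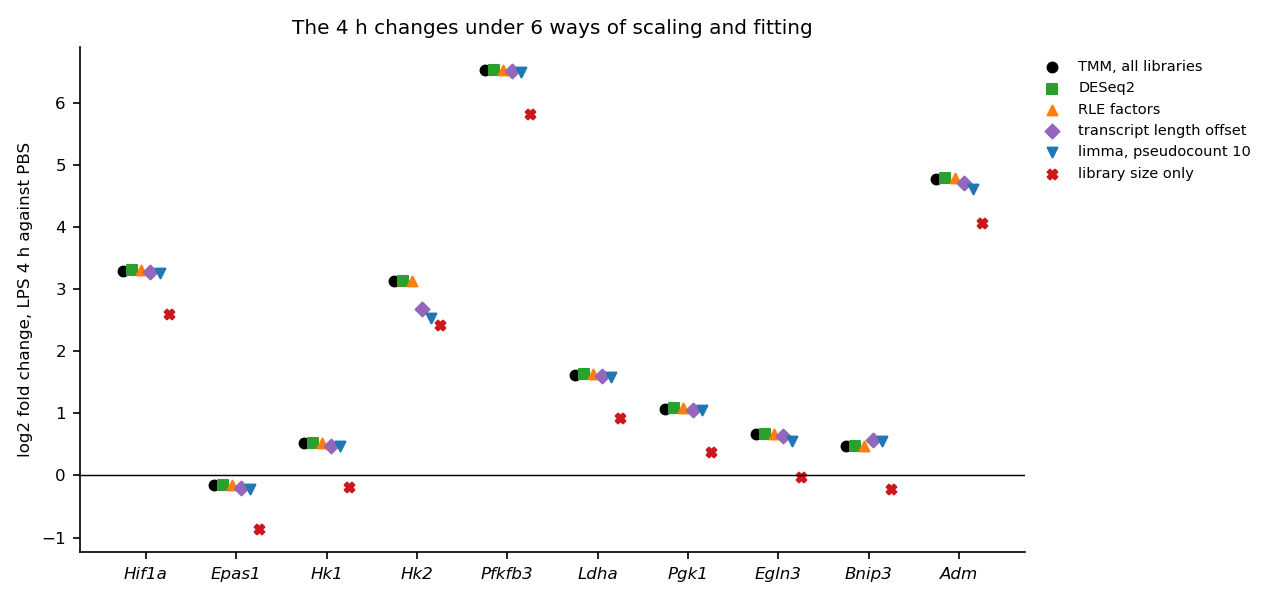
Log2 fold change at LPS 4 h against PBS for each member under 6 ways of scaling and fitting (marker shapes). Hif1a, Hk2, Pfkfb3, and Adm stay above 2 in each, and library size alone gives the lowest value for each member.

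The genes whose time course was most like that of a member were found by the root mean square distance of the 3 log2 fold changes against PBS, over 10892 other genes (10893 for Hk2) with a mean of at least 10 CPM. Nearest to Pfkfb3 were Socs3, a feedback inhibitor of cytokine signalling (0.77, 1.72, and 6.48, distance 0.124), and Gm18853 (distance 0.220). Hif1a lay closest to Pirb (−0.15, 0.08, and 3.35, distance 0.0360) and H2-Q4 (distance 0.0689). Nearest to Adm were Pnp (0.12, 1.04, and 4.75, distance 0.139) and Inhbb (distance 0.165). Hk2 had Crispld2 (distance 0.103) beside it, Ldha had A030001D20Rik (0.0486) and Hipk1 (0.0541), and Pgk1 had Mest (0.0475) and Ehd1 (0.0513). These are likenesses over 3 fold changes that share the PBS libraries and were not tested.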

How the data were processed

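RNA of cerebral vessels was sequenced after SMART-Seq v4 amplification and Nextera XT preparation, neither of which marks the strand, so overlapping antisense genes cannot be told apart. The authors quantified transcripts with Salmon 1.2.1 and normalized genes with DESeq2 (GRCm38.p6, per the submitters' processing notes). The deposited estimated counts are raw fragment estimates per transcript. The deposited TPM are the same estimates put on a per-length scale with a fixed library sum. The deposited gene table holds a normalized signal, which entered the limma alternatives; all its library columns were used (0 left unused).

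Of 140948 transcripts 139852 were joined to GENCODE M21 (GRCm38) by identifier, and those left out held 0.482% to 0.85% of fragments. Estimated counts were summed to genes and rounded. In edgeR 4.0.16 under R 4.3.3, 19150 genes remained after filterByExpr (at least 10 counts, 15 in total, share 0.7). A single glmQLFit with TMM used the 12 libraries, and glmTreat tested against a null of at most 1.5-fold for 5 comparisons, with Benjamini-Hochberg adjustment over all genes. The SE was taken as the absolute log2 fold change divided by the root of F. Alternatives were DESeq2 1.42.0 with the same fold limit, no fold limit, RLE factors, scaling by library size alone, unfiltered genes, a transcript length offset, a fit restricted to the 2 groups of a comparison, the library number as a block, limma 3.58.1 with pseudocounts 1 and 10, and leaving out each library. The scripts were tested on simulated data.

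Library numbers are shared between groups. Deviations of same-numbered libraries correlated between −0.17 and 0.10 in 18 comparisons, and the number was therefore treated as a name. Replicates differed by more than counting noise (mean chi-square per gene 2.55 to 7.19), and no library was a copy of another. Depth was 18.3 to 25.9 M fragments.

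All 10 members are named. From 8 pathway lists, the text names genes called against PBS (at most 6 per list and comparison, largest changes first) and the best-known gene; a few further genes of the lists (such as Ldhb, Hk3, Pfkl, Fundc1, and Ramp3) are given as context, chosen with their values in view. The members, lists, and markers were chosen with earlier results of these data known, and the alternatives for list genes were chosen after seeing the data. Ero1a was matched as Ero1l, and Aldoa to its protein-coding entry. Some genes of the lists, though counted, are not reported here by name. Plots were drawn with matplotlib 3.10.9 in Python 3.11.15.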

Additional observations from a re-analysis of the deposited data

Results flagged for a closer look

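The LPS effect on a member differed between 2 time points wherever the direct comparison of those times was called in edgeR. Between 15 and 30 min this held for Pfkfb3, with a difference of 1.06 on the log2 scale, and for Egln3, with 1.17. Between 30 min and 4 h it held for Pfkfb3 (4.63), Adm (3.72), Hif1a (3.23), Hk2 (3.01), Ldha (0.96), Pgk1 (0.81), and Hk1 (0.68). All differences were increases at the later time. Those of Egln3, Ldha, Pgk1, and Hk1 were not called with library size scaling (1.03, 0.42, 0.27, and 0.14), and the other values were.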

How the results depend on the processing

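The count of members called higher at 4 h against PBS was 6, and 5 with library size scaling, which also called 1 lower (Epas1). With no fold limit 3 members were higher and 6 lower at 15 min, 5 higher and 2 lower at 30 min, and 1 lower at 4 h. At 15 min limma called 0 higher with either pseudocount. At 30 min DESeq2, library size, and both limma settings left 1 higher, and leaving out a library gave 1 to 3, the lowest without PBS replicate 1. From 15 to 30 min DESeq2, library size, a transcript length offset, and both limma settings left 1, no fold limit gave 9, and leaving out a library gave 1 to 2. From 30 min to 4 h library size left 4 higher and called 1 lower (Bnip3), and no fold limit called 1 lower. The library number as a replicate block, which the check of deviations does not bear out as a pairing, kept all 19 calls of a member in a comparison and added 0. Leaving out 1 library at a time kept 104 of 114 calls and ended 10. Library size kept 12 of the 19, ended 7, and added 2. No called change of a member reversed its direction. The cause of each difference was not tested. With library size scaling the median log2 fold change of all genes at 4 h against PBS was −0.71, where TMM gave −0.01. Depth limits Hk2 and Adm before 4 h, with 35 to 218 fragments a library, and Egln3 at every time, with 46 to 102.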
